A study of Mus musculus with 4 samples.

Results

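Integrins are the adhesion receptors with which T cells hold on to blood vessel walls, to antigen-presenting cells and to the matrix around them. The genes described here are 10 integrin chains that T cells use, chosen by name as alpha chains (Itgal, Itga4, Itga5, Itga6, Itgae and Itgav) and beta chains (Itgb1, Itgb2, Itgb3 and Itgb7). All 10 were found among the 16718 genes of the table. An integrin is a heterodimer of 1 alpha and 1 beta chain, and it reaches the cell surface only as that pair. Resting T cells keep it in a bent, weakly binding form. Signals from the T cell receptor pass through the small GTPase Rap1 to talin and kindlin, which bind the tail of the beta chain and switch the receptor to its strongly binding form.

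The RNA came from naive CD4+ T cells of mice that had been stimulated for 4 hours with an antibody to CD3, a chain of the T cell receptor complex. The labels name 2 libraries of wild-type cells (WT) and 2 of cells, labelled cKO, that carry a conditional knockout of the gene for the zinc finger transcription factor Zfp281. The sources used here do not give the promoter that drove the recombinase, the ages of the mice or whether the libraries came from separate animals. The table gives 1 RNA level per gene and genotype, in FPKM (sequenced fragments scaled to transcript length and library depth). The spread between libraries is therefore unknown, and none of the differences could be checked between replicates.

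The WT column rested on an estimated 17373033 reads and the cKO column on 17215655. Zfp281, the deleted gene, stood at 66.3 FPKM in WT against 0.44 FPKM in cKO. Markers of T cells were abundant, with Cd3e at 339 and 314 FPKM and Cd4 at 249.9 and 239.8 FPKM in WT against cKO, whereas Cd8a stood at 0.28 and 0.47 FPKM. Intervals below are 95% intervals on the estimated reads and cover counting error only. Coordinates are those of RefSeq on GRCm38.p6, the build that mm10 corresponds to. A gene is said to have risen or fallen where it had at least 1 FPKM in either genotype and an FDR below 0.05 in the authors' deposited table, a test that compares the 2 sets of reads rather than the 2 genotypes. Over the whole table this rule called 36.7% of 10728 genes, 19.9% as higher and 16.9% as lower in cKO. The test passes smaller changes where reads are more numerous. Cd53 passed at 1.05-fold on an estimated 23060 and 24084 reads, whereas Ptk2 did not pass at 0.739 of WT on 175 and 128. Shares called in lists of abundant genes are therefore not matched to the share of all genes.

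The alpha L and beta 2 chains of LFA-1, the integrin that binds ICAM-1 on antigen-presenting cells, both fell in cKO, while the alpha chains Itga4 and Itga5, which bind fibronectin when paired with Itgb1, rose. Of the 9 chains with at least 1 FPKM, 2 rose, 2 fell and 5 did not pass. The share called, 44.4%, was near that of all genes and is no result about integrins as a class. By size, 1 chain was at least 25% higher (Itga5) and 1 at least 20% lower (Itgb2), together 2 of 9 beside 23.0% of all genes (13.3% higher and 9.68% lower). The authors' own mark, which covers 2-fold changes with an FDR no higher than 0.001, was on none of the 10 chains. It was on 1.15% of all genes tested, so its absence here is no result about integrins. The median change of the 9 chains was -0.08 on the log2(FPKM + 1) scale, beside 0.02 for all genes tested.

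The levels of the chains spanned a wide range. Itgb2 stood higher than 97.4% of the tested genes in WT and Itga5 higher than 22.8%. In both genotypes the order from the top was Itgb2, Itgal, Itgb7, Itga4, Itga6, Itgb1, Itgb3, Itgav, Itga5 and Itgae. The counting intervals of neighbours in this order did not overlap, except those of Itgav and Itga5 in cKO. The order of Itga4 and Itga6 in WT depended on the transcript length: the table used 6010 bases for Itga6, and with the 4310 bases of its longest GENCODE transcript matched to RefSeq Itga6 would stand at 48.9 FPKM, above Itga4 at 43.0 FPKM.

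**Figure D1:**
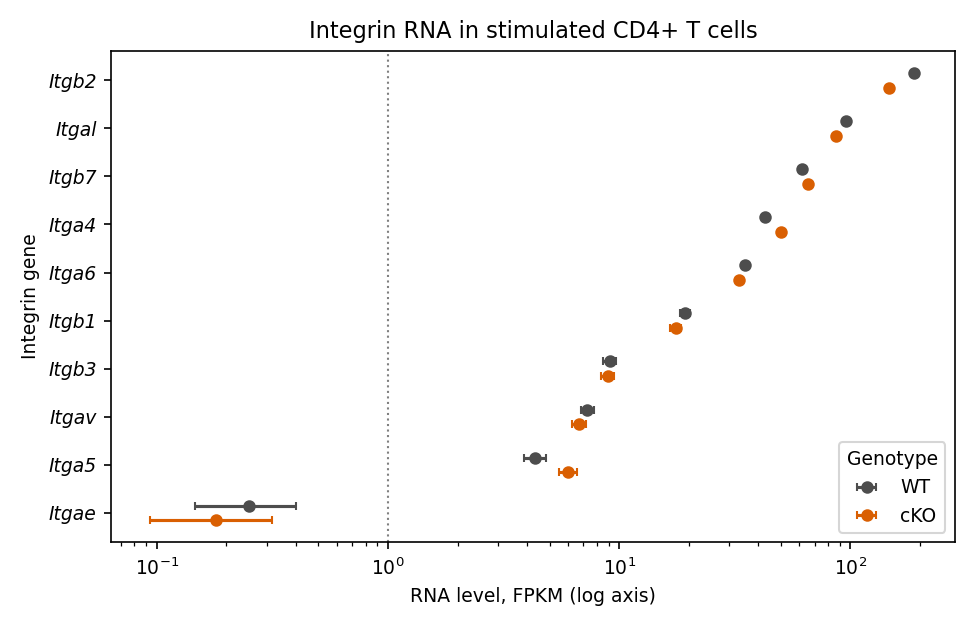
RNA level of the 10 integrin chains in FPKM on a log axis, as the authors' single value for WT (grey) and cKO (orange); bars are 95% counting intervals on estimated reads, hidden where smaller than the point, and the dotted line marks 1 FPKM. Itgb2 is the highest chain at 189 FPKM in WT against 147 FPKM in cKO, and Itgae is the only chain below 1 FPKM.

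Itgb2 (NCBI gene 16414, chr10:77530329-77565708), the beta chain of LFA-1 and of the other leukocyte integrins, had 189 FPKM in WT against 147 FPKM in cKO, from an estimated 9436 and 7252 reads. It fell to 0.775 of its WT value (0.752 to 0.7996), the only fall of at least 20% among the 9 chains, with an FDR of 5.6e-58 in the authors' deposited table. Itgal (NCBI gene 16408, chr7:127296139-127335137), the alpha chain that pairs with Itgb2 to make LFA-1, had 95.6 FPKM in WT against 86.9 FPKM in cKO. Its fall was smaller, to 0.909 of WT (0.882 to 0.938), with an FDR of 1.62e-08 in the authors' deposited table. Both chains of LFA-1 were thus lower in cKO, and the beta chain more so: the ratio of Itgb2 to Itgal RNA was 1.98 in WT and 1.69 in cKO, a change to 0.853 (0.817 to 0.890). The other alpha chains that join Itgb2 are myeloid, and they were near the lower limit. Itgam stood at 0.29 FPKM in WT against 0.34 FPKM in cKO, Itgax at 0.10 and 0.13 FPKM, and Itgad was listed at 0 in WT and at 0.02 FPKM in cKO.

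RNA of general T cell markers moved the same way as LFA-1. Of the 8 T cell markers measured, 6 fell and none rose, beside 16.9% lower and 19.9% higher among all genes, unmatched for read number. Their summed level was 2548 FPKM in WT against 2138 FPKM in cKO. The falls were unequal: the ratio of cKO to WT was 0.51 for Thy1, 0.73 for Cd3g, 0.75 for Cd5 and 0.87 for Cd3d. It was 0.93 for Cd3e, 0.96 for Cd4 and 0.97 for Cd2 and Cd247, of which Cd2 and Cd247 did not pass. In bulk RNA, fewer cells of a type and less RNA per cell cannot be told apart. The part of such a shift in the fall of Itgb2 and Itgal was not tested.

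Itga4 (NCBI gene 16401, chr2:79255426-79333114) encodes the alpha 4 chain, which with Itgb1 forms VLA-4, a receptor for VCAM-1 and fibronectin, and with Itgb7 the gut-homing receptor for MAdCAM-1. It had 42.7 FPKM in WT against 50.2 FPKM in cKO, on 7384 and 8606 estimated reads, and rose 1.18-fold (1.14 to 1.21). The authors' deposited table gives it an FDR of 5.41e-23. Part of the Itga4 transcript, 8.04% of its annotated exon bases, overlaps Cerkl on the opposite strand. Cerkl itself stood at 0.63 FPKM in WT against 0.91 FPKM in cKO, far below Itga4. The sources used here do not say whether reads were counted by strand.

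Itga5 (NCBI gene 16402, chr15:103344286-103366791) encodes the alpha 5 chain, which pairs with Itgb1 as the classical fibronectin receptor. It was the lowest of the 9 chains in WT, at 4.34 FPKM, and had 6.01 FPKM in cKO, on 337 and 463 estimated reads. It rose 1.38-fold (1.20 to 1.60), with an FDR of 4.14e-05 in the authors' deposited table. Its interval is the widest of the 4 changed chains because it rests on the fewest reads, and its lower end overlaps the interval of Itga4.

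RefSeq promoters on GRCm38.p6 were matched for 5 of the 10 chains (Itga4, Itga5, Itgav, Itgb1 and Itgb7). Those of the 2 chains that rose are shown because Zfp281 is known to bind G-rich and GC-rich DNA. Each is the 250 bases before the start of the gene, 5′ to 3′ on the strand of the gene, at chr2:79255176-79255425 (plus strand) for Itga4 and chr15:103366792-103367041 (minus strand) for Itga5. Capitals mark matches on either strand to GGGAGGG, to GGGGGAGG, which can overlap it, or to GGGCGG, the GC box.
Itga4: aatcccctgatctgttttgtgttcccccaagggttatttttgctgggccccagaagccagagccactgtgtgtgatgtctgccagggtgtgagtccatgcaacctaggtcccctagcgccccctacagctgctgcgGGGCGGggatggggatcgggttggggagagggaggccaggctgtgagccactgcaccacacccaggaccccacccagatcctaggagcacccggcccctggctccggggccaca
Itga5: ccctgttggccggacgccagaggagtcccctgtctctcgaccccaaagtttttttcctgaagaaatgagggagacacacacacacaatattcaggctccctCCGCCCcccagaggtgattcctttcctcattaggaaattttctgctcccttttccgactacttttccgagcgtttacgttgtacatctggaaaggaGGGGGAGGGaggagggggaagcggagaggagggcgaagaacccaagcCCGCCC
Itga5 held 1 match to GGGAGGG and 1 to GGGGGAGG, which overlap each other, and 2 matches to GGGCGG. Itga4 held 1 match to GGGCGG and none to the other motifs. Among 32851 promoter windows of this length, 19.7% held GGGAGGG, 7.36% GGGGGAGG and 32.7% GGGCGG. That background includes windows at inner start sites and was not matched for GC content. Itgb1, which did not pass, held 1 GGGGGAGG and 1 GGGCGG before its start. The windows listed for Itgav and Itgb7 lie inside the annotated genes, at an inner start site, and are not compared. A match describes these letters and is not a binding site, and binding was not measured in the data used here.

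The partner chains of Itga4 and Itga5 did not pass. Itgb1 (NCBI gene 16412, chr8:128685654-128733579), the most widely shared beta chain, had 19.3 FPKM in WT against 17.6 FPKM in cKO, or 0.912 of WT (0.845 to 0.985), with an FDR of 0.0678 in the authors' deposited table. Itgb7 (NCBI gene 16421, chr15:102215994-102233405), the beta chain of the gut-homing integrins, had 62.0 FPKM in WT against 65.8 FPKM in cKO, 1.06-fold (1.01 to 1.12), with an FDR of 0.0789 in the authors' deposited table. Itga6 (NCBI gene 16403, chr2:71786886-71858427), the alpha chain of a laminin receptor that also pairs with Itgb1, had 35.0 and 33.1 FPKM, or 0.947 of WT (0.904 to 0.992), with an FDR of 0.0855 in the authors' deposited table. These 3 chains lay close to the threshold, and a test that sets the median change of all genes to 0 would have placed Itgb1 and Itga6 among the falls, giving 4 lower chains instead of 2.

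**Figure D2:**
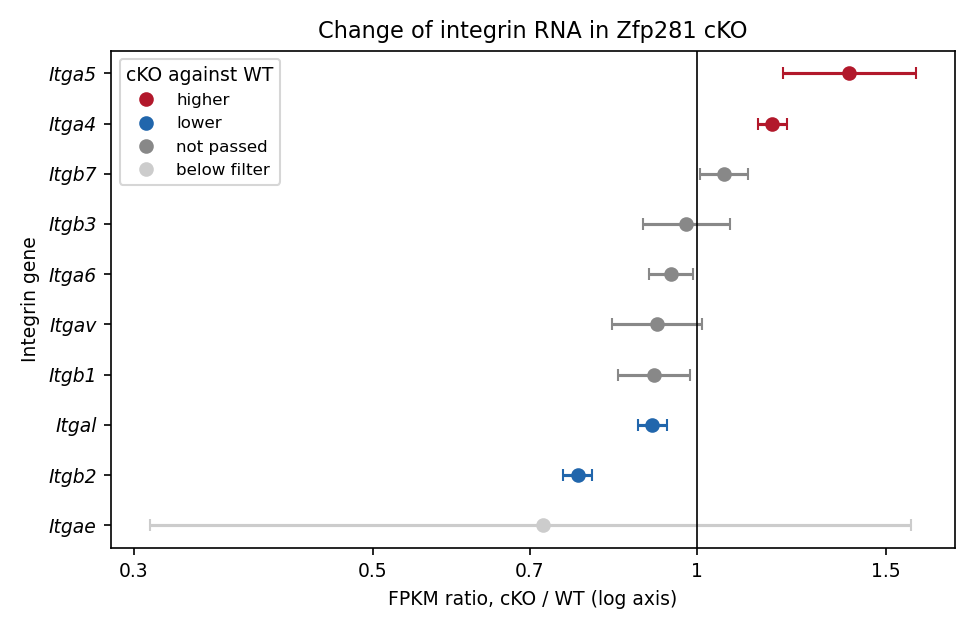
Ratio of the cKO to the WT FPKM value for the 10 integrin chains on a log axis; points are single ratios, bars are 95% counting intervals, and colours give the call, taken from the authors' deposited table. Itga5 (1.38) and Itga4 (1.18) lie above 1, Itgal (0.909) and Itgb2 (0.775) below it, and the interval of Itgae, on few reads, spans 0.310 to 1.58.

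Itgav and Itgb3, which pair with each other as the vitronectin receptor, were low and did not pass. Itgav (NCBI gene 16410, chr2:83722303-83806917) had 7.29 FPKM in WT against 6.70 FPKM in cKO, or 0.919 of WT (0.835 to 1.01). Itgb3 (NCBI gene 16416, chr11:104608000-104670476) had 9.12 and 8.92 FPKM, or 0.978 of WT (0.892 to 1.07). Their FDRs in the authors' deposited table were 0.226 and 0.783, and the lower ends of the intervals do not exclude a fall to 0.835 of WT for Itgav or to 0.892 for Itgb3. Itgb3 also forms the fibrinogen receptor of platelets with Itga2b, which rose from 1.55 to 2.27 FPKM, 1.46-fold (1.12 to 1.93). Of 8 platelet and erythroid markers, 5 were in the table, and their summed level, Itga2b included, was 2.55 FPKM in WT against 2.80 FPKM in cKO. The increase came from Itga2b, which made up most of this sum. Hba-a1 went from 0.32 to 0.21 FPKM and Alas2 from 0.23 to 0.24 FPKM. Hbb-bs had 0.38 FPKM in WT and was listed at 0 in cKO. These 3 markers rested on at most 8 estimated reads per genotype. The platelet marker Gp9 stood at 0.07 FPKM in both genotypes, on 1 estimated read each. The part of platelet RNA in the Itgb3 and Itga2b values was not tested.

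Itgae (NCBI gene 16407, chr11:73090505-73147449) encodes the alpha E chain, CD103, which pairs with Itgb7 and binds E-cadherin on epithelial cells. It is known from tissue-resident, CD8+ and regulatory T cells. It had 0.25 FPKM in WT against 0.18 FPKM in cKO, from 17 and 12 estimated reads, and lay below the filter. Its ratio, 0.720, had an interval of 0.310 to 1.58, so no difference was detectable at this depth. Of the 6 regulatory T cell markers 5 rose and 1, Il2ra, fell, beside 19.9% higher and 16.9% lower among all genes. Their summed level was 131.2 FPKM in WT against 173.7 FPKM in cKO. Most of it was Tnfrsf18, at 79.1 and 106.8 FPKM, whereas Foxp3 stood at 0.55 and 1.26 FPKM. The CD8 T cell markers summed to 13.3 and 21.4 FPKM, with Cd8b1 and Eomes higher. Most of that sum was Cd8b1, at 11.5 and 17.8 FPKM, and Cd8a stood at 0.28 and 0.47 FPKM. The part of such cells in the Itgae value was not tested.

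Because chains work in pairs, the ratio of their RNA levels was compared between the genotypes. RNA ratios are not ratios of protein or of surface receptor. The ratio of Itga4 to Itgb1 was 2.22 in WT and 2.86 in cKO, a 1.29-fold change (1.19 to 1.40), and that of Itga4 to Itgb7 was 0.689 and 0.763, a 1.11-fold change (1.04 to 1.18). Itga4 RNA was therefore more abundant than Itgb1 RNA and less abundant than Itgb7 RNA in both genotypes. The ratio of Itgb7 to Itgb1, the beta chains between which Itga4 can choose, was 3.22 in WT and 3.75 in cKO, 1.16-fold higher (1.06 to 1.27). The ratio of Itga5 to Itgb1 was 0.225 in WT and 0.342 in cKO, a 1.52-fold change (1.29 to 1.78). Against its fellow alpha chain Itga5, Itga6 moved from a ratio of 8.06 to 5.51, a change to 0.684 (0.590 to 0.793).

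For the other pairs the interval of the change included 1. The ratio of Itga6 to Itgb1 was 1.82 in WT and 1.88 in cKO (change 1.04, 0.950 to 1.13). That of Itgav to Itgb1 was 0.378 and 0.381 (change 1.01, 0.893 to 1.14), and that of Itgav to Itgb3 was 0.799 and 0.751 (change 0.940, 0.824 to 1.07). Itgb7 exceeded Itgae 248-fold in WT and 366-fold in cKO, with a wide interval for the change (0.703 to 3.09). The changes do not depend on transcript length, whereas the ratios within a genotype do.

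**Figure D3:**
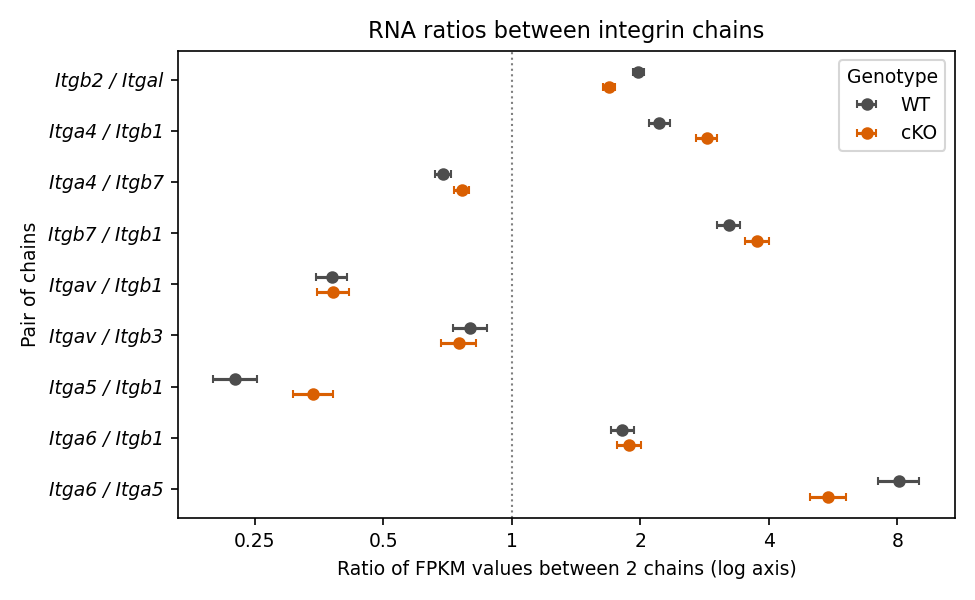
Ratio of the FPKM values of 2 integrin chains within a genotype, on a log axis, for WT (grey) and cKO (orange); bars are 95% counting intervals and the dotted line marks equal levels. Itgb2 to Itgal moves from 1.98 to 1.69, Itga4 to Itgb1 from 2.22 to 2.86 and Itga5 to Itgb1 from 0.225 to 0.342, while Itgav to Itgb1 is at 0.378 and 0.381; the ratio of Itgb7 to Itgae is not drawn.

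Summed over chains, the 4 beta chains came to 279.7 FPKM in WT but 239.1 FPKM in cKO (0.855 of WT) and the 6 alpha chains to 185.2 and 183.2 FPKM (0.989 of WT). Itgal and Itgb2 together made up 61.3% of the summed level of the 10 chains in WT and 55.3% in cKO. The 4 alpha chains that pair with Itgb1 (Itga4, Itga5, Itga6 and Itgav) summed to 89.3 and 96.1 FPKM. The 10 chains held 98.3% of the summed level of all 26 integrin chains in WT and 97.9% in cKO. Of the 16 other chains, 4 reached 1 FPKM, Itga2b, Itga3, Itga7 and Itga10. Besides Itga2b none of these passed: Itga3 had 1.60 and 1.85 FPKM, Itga7 2.69 and 2.58 FPKM, and Itga10 1.19 and 1.34 FPKM in WT against cKO.

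Around the receptors, genes that carry signals to Rap1 and those of the beta tail moved in both directions. Of 19 measured genes of inside-out signalling to Rap1, 8 rose and 7 fell. The share called was 78.9% beside 36.7% of all genes, not matched for read number. By the size rule used for the integrin chains, 5 of the 19 were higher and 1 lower, beside 13.3% and 9.68% of all genes. Fyb, encoding the adaptor ADAP that links the T cell receptor to integrin activation, rose from 129.0 to 190.9 FPKM, 1.48-fold (1.44 to 1.52). Stk4, encoding the kinase MST1, rose 1.33-fold (1.29 to 1.36), and Sipa1l1, of a family that switches Rap1 off, rose 1.41-fold (1.34 to 1.48). Lcp2, encoding the adaptor SLP-76 to which ADAP binds, fell from 303 to 230.8 FPKM, to 0.761 of WT (0.744 to 0.778). Dock2, an activator of Rac, fell to 0.849 (0.828 to 0.872). The list's median was 0.05 on the log2(FPKM + 1) scale.

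At the integrin tail, 4 of 15 adaptor genes rose, 4 fell and 7 did not pass, with a median of 0.03 (log2). The share called was 53.3% beside 36.7% of all genes, not matched for read number. By the size rule, 1 of the 15 was higher and 0 lower, beside 13.3% and 9.68% of all genes. Fermt3, encoding the kindlin of blood cells that binds beta chain tails, fell from 80.3 to 71.8 FPKM, to 0.894 of WT (0.852 to 0.937). Flna, encoding filamin A, which competes with talin for the beta tail, fell to 0.861 (0.842 to 0.880), and Zyx, a focal adhesion gene, to 0.908 (0.866 to 0.953). Cyth1, encoding cytohesin-1, known to bind the beta 2 tail, rose 1.22-fold (1.16 to 1.29), and the actinin gene Actn1 rose 1.11-fold (1.08 to 1.15). Talin itself, Tln1, did not pass, at 105.3 and 106.6 FPKM, and was named after its values were seen.

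Genes that act downstream of bound integrins, many of which also serve the T cell receptor, held 2 that rose and 9 that fell of 17. The share called was 64.7% beside 36.7% of all genes, not matched for read number, and the imbalance was not tested. The median of the 17 was -0.16 (log2), beside 0.02 for all genes tested. By the size rule used for the integrin chains, 0 of the 17 were higher and 2 lower, beside 13.3% and 9.68% of all genes. The Src family kinase Lck fell from 400.5 to 322 FPKM, to 0.804 of WT (0.785 to 0.824), and Fyn to 0.865 (0.844 to 0.886). Zap70, the kinase recruited to the T cell receptor, fell to 0.785 (0.762 to 0.808). Ptk2b, encoding the focal adhesion kinase relative PYK2, fell to 0.827 (0.798 to 0.857), and Coro1a, an actin regulator, to 0.897 (0.880 to 0.915). The T cell markers, of which 6 of 8 fell beside 16.9% of all genes, moved the same way, and their part in these falls was not tested.

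**Figure D4:**
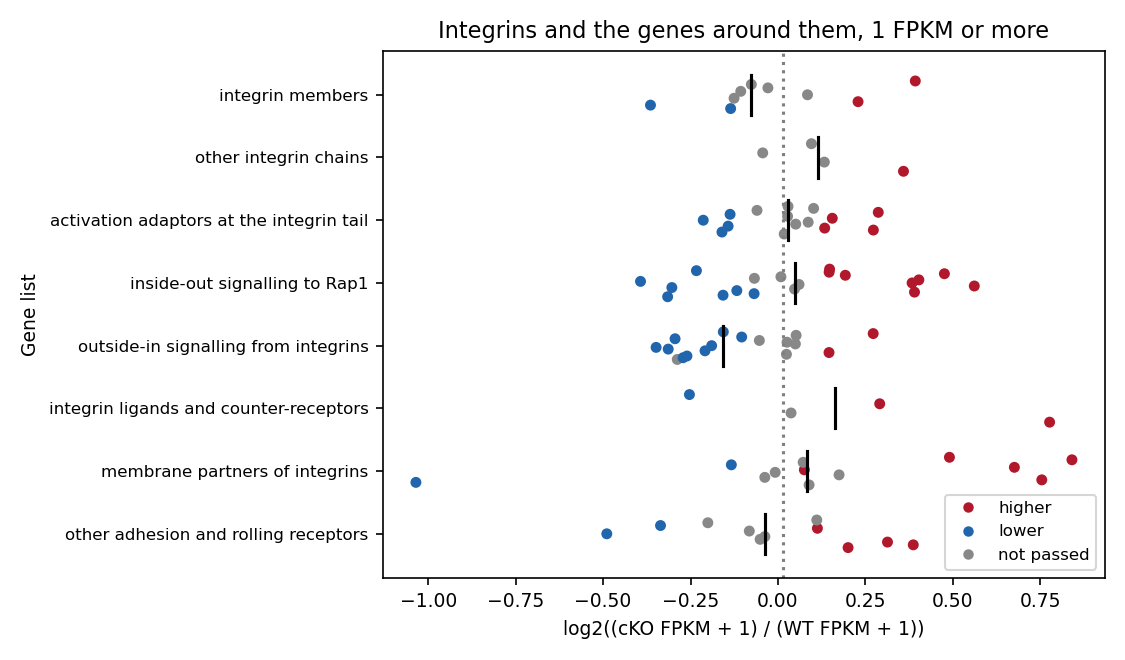
Change of each gene with at least 1 FPKM as log2((cKO FPKM + 1) / (WT FPKM + 1)), by list; points are genes coloured by the call from the authors' deposited table, spread vertically for sight only, black bars are list medians, and the dotted line is the median of all genes tested (0.02). The integrin chains lie between -0.36 and 0.39, and Cd9 lies farthest from 0 in the membrane partner list.

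Among genes of integrin ligands, Icam1, encoding the ligand of LFA-1, rose 1.75-fold, from 18.6 to 32.6 FPKM (1.61 to 1.91). This was opposite in direction to both chains of its receptor. Mfge8, encoding a ligand of alpha v integrins, rose from 8.27 to 10.3 FPKM (ratio interval 1.07 to 1.46), and Tgfb1, whose latent protein is bound by alpha v integrins, fell to 0.838 (0.807 to 0.870). Icam2 did not pass, so that 2 rose and 1 fell of the 4 ligand genes with at least 1 FPKM, of 26 in the list. The share called was 75.0%, on these 4 genes only, beside 36.7% of all genes.

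Membrane proteins that associate with integrins held the widest range of changes among these lists, from -1.04 to 0.84 on the log2(FPKM + 1) scale. Of 12, 5 rose, 2 fell and 5 did not pass, a share called of 58.3% beside 36.7% of all genes. By size, 4 were at least 25% higher and 1 at least 20% lower, beside 13.3% and 9.68% of all genes. Cd9, encoding a tetraspanin that binds beta 1 integrins, fell from 32.9 to 15.6 FPKM, to 0.472 of WT (0.414 to 0.537). Another tetraspanin gene, Cd81, rose from 11.6 to 20.2 FPKM, 1.75-fold (1.51 to 2.02), and Cd53 rose 1.05-fold (1.03 to 1.07). Cd226, encoding the receptor DNAM-1 that associates with LFA-1, rose from 2.44 to 5.16 FPKM, 2.11-fold (1.66 to 2.68). Emb, encoding embigin, rose 1.41-fold (1.34 to 1.48), and Cd63 rose from 0.64 to 1.62 FPKM on 10 and 25 estimated reads. Icam1 and Cd81 are also expressed by B cells, whose 8 markers summed to 14.8 FPKM in WT but 24.4 FPKM in cKO. Of the 5 B cell markers with at least 1 FPKM, 2 passed as higher, beside 19.9% of all genes. The part of B cells in these rises was not tested.

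Of 11 other adhesion receptors 4 rose, 2 fell and 5 did not pass. The share called was 54.5% beside 36.7% of all genes, not matched for read number. By the size rule, 2 of the 11 were higher and 2 lower, beside 13.3% and 9.68% of all genes. Selplg, encoding the selectin ligand PSGL-1, rose 1.31-fold (1.26 to 1.36), as did Cd44, at 3.58 and 4.69 FPKM (1.12 to 1.54). Cd6, a receptor for the adhesion molecule ALCAM, fell to 0.711 of WT (0.694 to 0.729), and Cd96, a receptor of the nectin-binding family, to 0.787 (0.729 to 0.850).

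How firm the integrin calls are depends on the spread between libraries, which the table does not show. If each set of reads is assumed to vary by a further coefficient of variation (CV) of 5%, Itgb2 and Itga5 would still have passed after Benjamini-Hochberg adjustment over all genes, and Itgal and Itga4 would not. At that CV 10.6% of all genes would have passed. At 10%, where 1.46% of all genes would have passed, no integrin chain would have, and of the surrounding lists Icam1, Cd81 and Cd226 would have been higher and Cd9 lower. At 20%, with 0.158% of all genes passing, again no chain would have passed.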

How the data were processed

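RNA was sequenced on a BGISEQ-500, per the labels' protocols, with Bowtie2 2.2.5 and mm10 listed in the submitters' processing notes. Expression was deposited as FPKM, 1 column per genotype, by a tool that the sources used here do not give. The authors' deposited table also gives the log2 fold change, the p-value and an FDR per gene, which exceeds 1 for some genes and is handled as a score. The lowest FPKM, 0.01, was taken as 0. Symbols of 24 genes turned into dates were restored by gene ID from RefSeq (GRCm38.p6), which also gave coordinates.

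Reads were estimated from FPKM, length less 35 bases and 56.7 FPKM bases per read, calibrated on 304 single-read genes and the deposited p-values; log10 p-values of a recomputed negative binomial read test correlated with the deposited ones at r = 0.999 across 16700 genes, which are not independent and partly served the fit. Fold intervals are exact Clopper-Pearson and level intervals exact Poisson, both at 95%; ratio intervals use a normal approximation on the log scale. Intervals cover counting error only. The test with an assumed CV adds that variation to the log ratio's counting error. Scripts used Python 3.11.15 and scipy 1.17.1 and were tested on simulated data.

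The integrin genes and all lists were chosen with earlier results of these data known. Transcript lengths for an alternative came from GENCODE M21. Named were all 10 chains, other chains at 1 FPKM, and per list up to 5 passing genes with the smallest deposited p-value plus any past 1.5-fold. A gene that this rule names is not reported here. The size rule was a change of at least 25% up or 20% down. Genes named for another reason, such as the markers, Itgam, Itgax, Itgad, Cerkl, Icam2 and those of the closing section, were named after their values were seen. No gene was named for a similar pattern, since each gene has 2 values.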

Additional observations from a re-analysis of the deposited data

How the results depend on the processing

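No paired analysis was possible because the table holds 1 value per genotype, and for the same reason no library could be left out. The direction of every integrin chain's change was kept with a pseudocount of 0.1 and with the median change set to 0. The counts of 2 higher and 2 lower chains were the same with no filter and with 5 FPKM. They became 1 and 1 when a change of 25% up or 20% down was also required or at an assumed CV of 5%, chosen after seeing the data, and 0 and 0 at a CV of 10% or 20%. With the median change set to 0 the lower chains numbered 4. Past 1.5-fold there were 0 chains in either direction, and with no filter Itgae made 2 chains at least 20% lower. With no filter the higher calls became 2 among other integrin chains, 5 among ligands, 3 among genes downstream of integrins and 5 among other adhesion receptors. With the median change set to 0 the higher calls became 7 in the Rap1 list and the lower calls 11 downstream of integrins. Other adhesion receptors then held 3 higher and 3 lower calls. At a CV of 10% the higher and lower calls became 2 and 1 among membrane partners and 1 and 0 among ligands, and 0 in the remaining lists. With lengths of the longest RefSeq-matched transcript, the ratios in WT and cKO were 1.90 and 1.62 for Itgb2 to Itgal, 2.04 and 2.63 for Itga4 to Itgb1, 2.93 and 3.41 for Itgb7 to Itgb1, 0.346 and 0.348 for Itgav to Itgb1, 2.31 and 2.40 for Itga6 to Itgb1, and 11.1 and 7.60 for Itga6 to Itga5. These moves follow from how each alternative was built: another centre, an added size rule, another filter, added variation or other lengths.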

Other observations

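Several genes of the integrin system lay below 1 FPKM in both genotypes and yet had an FDR under 0.05 in the authors' deposited table, all with the higher value in cKO. They are named because they passed. The share of all genes below 1 FPKM that passed was not counted, so their common direction is no result about integrins. Lamc1, encoding a laminin chain, stood at 0.21 FPKM in WT against 0.73 FPKM in cKO, on 28 and 97 estimated reads. Selp, encoding P-selectin, stood at 0.23 and 0.92 FPKM, on 14 and 55 estimated reads. Itga9, an alpha chain that pairs with Itgb1, stood at 0.18 and 0.35 FPKM, on 21 and 41 estimated reads. Fn1, encoding fibronectin, stood at 0.06 and 0.17 FPKM, on 8 and 23 estimated reads. Syk, a kinase of B cells and myeloid cells, stood at 0.10 and 0.32 FPKM, on 9 and 29 estimated reads. Thbs1, encoding thrombospondin, was listed at 0 in WT and stood at 0.17 FPKM in cKO, on 17 estimated reads. The monocyte, macrophage and dendritic cell markers summed to 1.95 FPKM in WT against 3.87 FPKM in cKO, with 1 of 8, Lyz2, at 1 FPKM and passing as higher. The neutrophil, mast cell and basophil markers summed to 8.32 and 10.2 FPKM and the endothelial and stromal markers, nearly all of it Pecam1, to 43.9 and 47.6 FPKM. The part of such cells in these values was not tested.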
